A study of Mus musculus with 5 samples.

Results

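Rhox5, a homeobox gene of the reproductive homeobox cluster on the X chromosome, was examined together with 8 genes of the early embryo and of pluripotent cells. They were the transcription factor genes Pou5f1, Nanog, Zfp42 and Sall4, the chromatin and maternal factor genes Utf1 and Dppa3, the Nodal co-receptor gene Tdgf1 and the RNA-binding protein gene Lin28a. The set was selected on the measured level of Rhox5, very high in neural and induced cells and low in the fetal liver lines, and the other genes were added by name. The pattern of Rhox5 is therefore described here without a test. All non-control probes of these 9 genes were taken, 11 probes in all of 41149 probes with a value on every array, and 28769 gene names were on the array.

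RNA of 5 mouse cell populations was measured on 1-colour Agilent arrays. The induced hepatic progenitor cells (iHPC) were made from a neural line with pMXs retroviral vectors, which carry no drug-selection marker, for 9 transcription factors (iHPC 9F) or for 10 (iHPC 10F). G418 was given 3 weeks after infection and for 1 week before harvest. The hepatic progenitor cells (HPC) were the lines HB1, from C57BL6J fetal liver at E13.5, and HNG2, from fetal liver of STOCK Tg(Nanog-GFP, Puro)1 Yam mice at the same stage. The neural progenitor cells (NPC) were the parental line NSBAg2, on 1 array. NSBAg2 was derived from the embryonic stem cell line BAg73C2, so iHPC and NPC share an embryonic stem cell origin and a beta-geo knock-in allele in Afp, while HNG2 comes from mice with a Nanog reporter. G418 therefore selected iHPC for transcription of Afp. The labels name none of the factors, so whether a probe also reads a vector transcript was not tested. Each group is 1 or 2 lines or cell populations, and nothing in the labels calls the arrays of a group repeat cultures. What the p-values weigh is therefore how far the arrays of a pair differ, which may be technical.

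On an array 58.9% to 65.6% of the spots that were not controls exceeded the background clearly, and the number of arrays limits the precision. Of 8 hepatic progenitor markers, 8 were well above background on every iHPC and HPC array and 4 in NPC, where Afp, Alb, Krt8 and Hnf4a were not. Of 6 neural markers, 5 were well above background on each iHPC array, 3 and 4 in HB1 and HNG2, and 6 in NPC. Of 8 embryonic stem cell markers on the array, among them 5 of the genes described here, 4 and 2 were well above background in iHPC, 4 and 3 in HPC, and 4 in NPC. Their summed signal, over the 75th percentile of the array, was 0.745 and 0.645 in iHPC, 0.570 and 0.844 in HPC, and 1.02 in NPC. The HPC pair thus spanned the iHPC pair. Most of this sum came from Dppa5a, with signals of 352 and 360 in iHPC, 431 and 630 in HPC, and 497 in NPC. No other of these markers exceeded 93.4, the signal of Utf1 in HB1, so the sum mainly follows 1 gene. All 4 mesenchymal markers were well above background in both iHPC, in HNG2 and in NPC, and 1 was in HB1. The summed signal of the mesenchymal markers was 3.19 and 3.13 in iHPC, 0.115 and 1.15 in HPC, and 157 in NPC. It was thus highest in NPC, and its part in the differences below was not tested. In bulk RNA fewer expressing cells and less RNA per cell cannot be told apart.

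Pluripotent cells of the early embryo are held in their state by a network of transcription factors around Pou5f1, Nanog and Sox2. Its genes are normally shut down as cells take on a neural or hepatic fate, in part by DNA methylation of their promoters. Rhox5, first known as Pem, is a textbook case of a gene silenced in this way. It is active in embryonic stem cells, in extraembryonic tissues and in the testis, and it is methylated and silent in most other tissues of the adult mouse.

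The 250 bases before the annotated start of Rhox5 and of the pluripotency genes Nanog and Pou5f1 are shown because these are promoters known to be regulated by methylation of CpG sites. They are RefSeq sequences of assembly GRCm38.p6, all on the plus strand, at chrX:37754358-37754607, chr6:122707239-122707488 and chr17:35505782-35506031, and the capitals mark each CpG.
Rhox5: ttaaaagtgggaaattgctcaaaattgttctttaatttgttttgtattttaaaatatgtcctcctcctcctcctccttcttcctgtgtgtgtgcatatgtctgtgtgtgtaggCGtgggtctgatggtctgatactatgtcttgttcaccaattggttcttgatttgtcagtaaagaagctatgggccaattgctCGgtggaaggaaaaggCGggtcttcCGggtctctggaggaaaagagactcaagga
Nanog: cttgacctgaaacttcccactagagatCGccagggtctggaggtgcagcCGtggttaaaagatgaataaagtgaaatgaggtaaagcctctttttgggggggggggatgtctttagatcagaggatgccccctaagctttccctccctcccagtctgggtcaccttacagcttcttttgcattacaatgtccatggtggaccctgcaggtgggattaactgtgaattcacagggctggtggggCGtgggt
Pou5f1: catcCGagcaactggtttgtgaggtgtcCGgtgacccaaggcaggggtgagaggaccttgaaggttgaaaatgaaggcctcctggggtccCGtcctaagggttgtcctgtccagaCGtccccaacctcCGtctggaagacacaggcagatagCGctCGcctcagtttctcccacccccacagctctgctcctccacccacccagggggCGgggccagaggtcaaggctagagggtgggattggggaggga
These windows hold 4 CpG for Rhox5, 3 for Nanog and 8 for Pou5f1, beside a median of 6 (quartiles 2 and 16) over 32851 windows of the same length. The table holds a second start each for Nanog and Pou5f1, with 2 CpG in the window of Nanog and 6 in that of Pou5f1. Rhox5 and both Nanog windows were thus below the median, while the Pou5f1 windows were above it and at it, and 37.8% of all windows held fewer CpG than that of Rhox5. Exact matches to the octamer motif ATGCAAAT, a binding sequence of POU factors, were searched on both strands in the 7 genes with a window. An exact match was found for Zfp42 only, 186 bases before the start, and in 1.60% of all windows. Variants of the motif were not searched, so the other windows may still hold POU sites. Methylation was not analysed here.

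Rhox5 was very bright in iHPC and NPC and dim in both HPC lines. Rhox5 was read by a single probe, for which no mm7 position is given here. This probe gave signals of 158296 in iHPC 9F, 154573 in iHPC 10F, 189 in HB1, 114 in HNG2 and 84363 in NPC. All 5 were well above background. Relative to the 75th percentile of each array, on the log2 scale, its levels were 8.07 and 7.83 in iHPC, -2.51 and -2.91 in HPC, and 7.12 in NPC. The iHPC and NPC arrays were all far above both HPC arrays, and iHPC and NPC did not overlap either.

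The mean level of Rhox5 was 7.95 ± 0.17 in iHPC and -2.71 ± 0.28 in HPC (SD, n = 2 each), a log2 difference of 10.66 with a limma standard error of 0.25, which is 1615-fold. HPC minus NPC was -9.83 on the log2 scale (SE 0.31), so HPC had a level 912-fold below that of NPC. iHPC exceeded NPC by 0.83 (SE 0.31), which is 1.77-fold. Set separately against NPC, iHPC 9F was 0.94 higher and iHPC 10F, hybridised on the same slide as NPC, 0.71 higher, both on the log2 scale. Both iHPC arrays were thus at or above the level of their parental line. Under quantile normalization the difference between iHPC and NPC was 0.56.

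Among genes well above background on all arrays of both groups, Rhox5 had the largest difference of 15528 genes between iHPC and HPC. It also had the most negative difference of 15719 genes between HPC and NPC. Between iHPC and NPC it ranked 2267 of 15764 genes from the top, so 14.4% of genes exceeded it there. Over all 19310 genes tested, Rhox5 ranked 2 from the top for iHPC minus HPC. For HPC minus NPC it ranked 23 from the bottom. Rhox5 was chosen for its differences from HPC, so these ranks only describe it. Scanning took 3 days, with HB1 alone on the earliest, HNG2 alone on the next and the remaining arrays on the last, so scan day and group cannot be told apart between HPC and the other cells. Within the HPC pair HNG2 was 0.40 below HB1, and within the iHPC pair 10F was 0.24 below 9F.

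**Figure D1:**
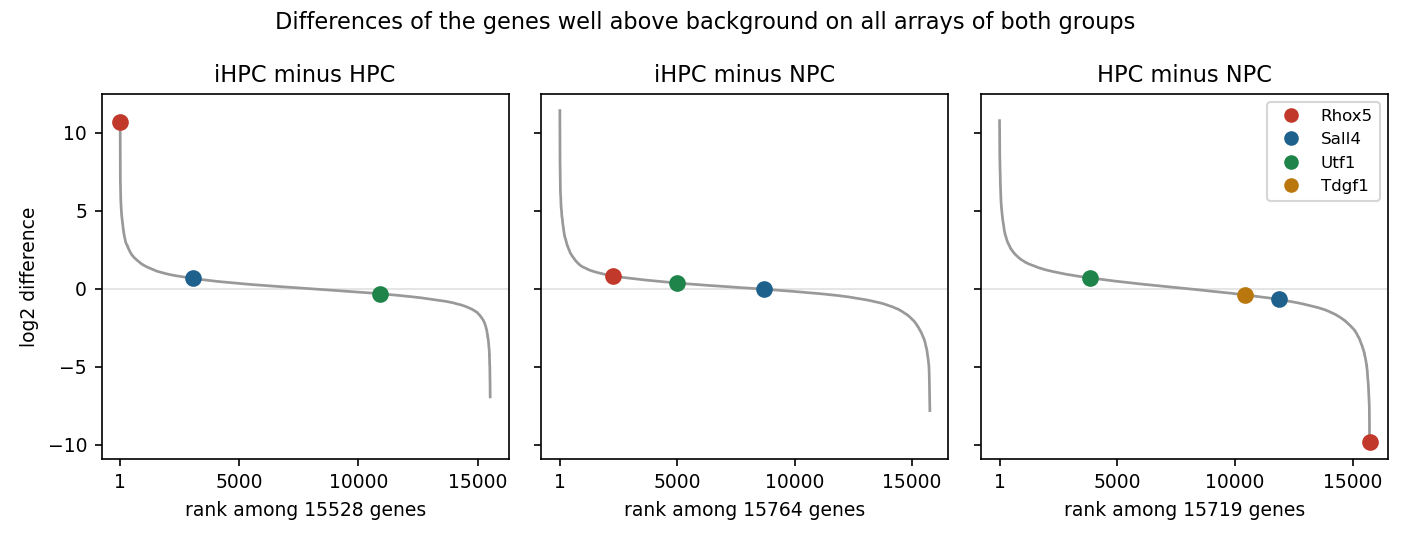
Log2 differences of all genes well above background on every array of both groups, sorted from highest to lowest, for iHPC minus HPC, iHPC minus NPC and HPC minus NPC. Rhox5 (red) lies at the top end of the first panel with 10.66 and at the bottom end of the third with -9.83, while Sall4, Utf1 and Tdgf1, where measured in both groups, lie between -0.69 and 0.69.

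None of the pluripotency genes tested was called in any comparison. Of the 8 other genes, 4 were bright enough to be tested, namely Sall4, Utf1, Tdgf1 and Nanog, and 4 were not, namely Pou5f1, Zfp42, Dppa3 and Lin28a. This filter needed a signal well above background on all arrays of 1 group or more. A gene was called where its limma p, adjusted over all 19310 genes tested, was under 0.05. Of the 4 tested genes 0 were called between iHPC and HPC, where 5.43% of all genes were. None was called between iHPC and NPC (5.64% of all genes) or between HPC and NPC (15.7% of all genes). By direction, 3.55% of all genes were called higher and 1.88% lower in iHPC than in HPC, 2.8% higher and 2.85% lower in iHPC than in NPC, and 6.68% higher and 8.97% lower in HPC than in NPC. At an unadjusted p under 0.05 limma gave 0 of the 4 between iHPC and HPC, 0 between iHPC and NPC and 1, Nanog, between HPC and NPC, against 27.6%, 24.4% and 36.4% of all genes. Nanog passed the filter only through the single NPC array, where it was highest, so the filter favoured that difference and nothing is read from its p. With 4 genes tested, these shares set no rate for the group.

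Across the 11 probes, 3 were well above background on all arrays, the probes of Rhox5 and Utf1 and the brighter probe of Sall4. Another 4 were well above background on no array: both probes of Zfp42, the dimmer probe of Sall4 and the probe of Lin28a. By array the number well above background was 6 in iHPC 9F, 3 in iHPC 10F, 5 in HB1, 4 in HNG2 and 5 in NPC. The counts of the HPC lines and NPC thus lay within those of the iHPC pair.

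**Figure D2:**
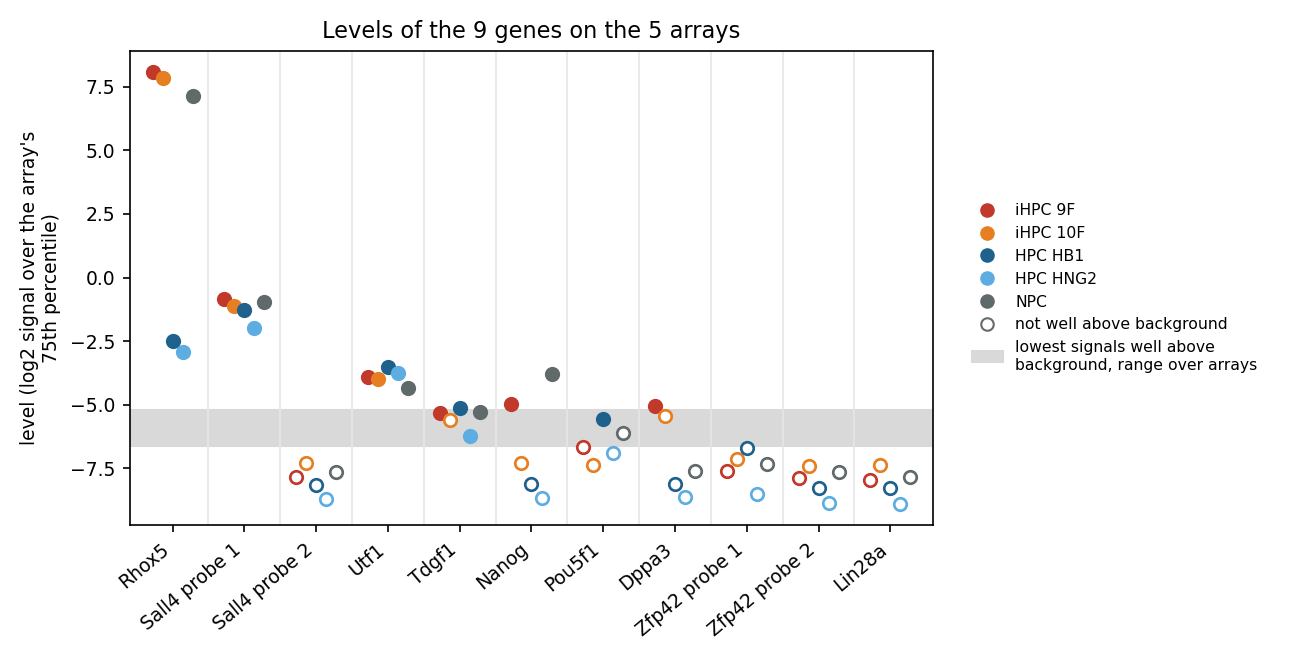
Level of each probe of the 9 genes on the 5 arrays, as log2 of the signal over the array's 75th percentile. Filled points are well above background and open points are not, and the grey band spans the lowest levels well above background on the arrays (-6.62 to -5.19). Rhox5 is near 8 in iHPC, below -2.5 in HPC and at 7.12 in NPC, and Sall4 probe 1 and Utf1 are measured on all arrays with little spread.

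Nanog, which encodes a homeobox factor that stabilises self-renewal, was highest in NPC, at signals near the background. Its probe (chr6:122750894-122750953 in the mm7 coordinates of the files) gave levels of -4.97 and -7.31 in iHPC, -8.13 and -8.67 in HPC, and -3.79 in NPC. It was well above background in NPC and iHPC 9F only, so iHPC was measured on 1 of its 2 arrays and HPC on neither. The level in HPC was at least 5.73-fold below that in NPC, with a limma adjusted p of 0.0751 (log2 difference -4.61 ± 1.11 SE). Between iHPC and HPC the log2 difference was 2.26 ± 0.91 (SE; adjusted p = 0.219), and between iHPC and NPC it was -2.35 ± 1.11 (SE; adjusted p = 0.308). In HNG2, the line from Nanog-GFP mice, Nanog was not well above background. The values in HNG2, HB1 and iHPC 10F were put in place of signals near the background by Agilent's software, so their order is not read.

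Sall4 encodes a zinc finger factor of embryonic stem cells that is also known in fetal liver progenitors. Its brighter probe (chr2:168545326-168545385, mm7) gave levels of -0.85 and -1.11 in iHPC, -1.28 and -1.99 in HPC, and -0.95 in NPC. Both iHPC arrays were above both HPC arrays by little, and NPC lay between the iHPC arrays. The log2 difference was 0.66 between iHPC and HPC (95% interval -0.31 to 1.63, limma adjusted p = 0.300), -0.03 between iHPC and NPC (adjusted p = 0.978) and -0.69 between HPC and NPC (adjusted p = 0.307). Without HB1 (HPC replicate 1) the difference of Sall4 was 1.01 between iHPC and HPC and -1.04 between HPC and NPC. That fit takes its spread from the iHPC pair alone, so no call is read from it. The dimmer Sall4 probe was not well above background on any array and gives no direction.

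Utf1, which encodes a chromatin-associated factor of undifferentiated embryonic cells, was well above background on all 5 arrays. Its levels (probe at chr7:136358008-136358067, mm7) were -3.92 and -3.99 in iHPC, -3.52 and -3.75 in HPC, and -4.33 in NPC. HPC, where Rhox5 was lowest, had the highest levels of Utf1, by differences that were not called. The log2 difference was -0.32 between iHPC and HPC (limma adjusted p = 0.381), 0.37 between iHPC and NPC (adjusted p = 0.460) and 0.69 between HPC and NPC (adjusted p = 0.147). Without HNG2 (HPC replicate 2) the difference between HPC and NPC was 0.80. That fit takes its spread from the iHPC pair alone, so no call is read from it.

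Tdgf1, also called Cripto, encodes a cell-surface co-receptor for Nodal. Its levels (probe at chr9:110638452-110638511, mm7) were -5.33 and -5.59 in iHPC, -5.13 and -6.24 in HPC, and -5.29 in NPC, and iHPC 10F was not well above background. All 5 values lay close to the background limit and the HPC pair spanned the other 3. The log2 differences were 0.23 between iHPC and HPC, -0.16 between iHPC and NPC and -0.39 between HPC and NPC (limma adjusted p = 0.779, 0.904 and 0.654). Without HB1 the difference between HPC and NPC was -0.95. That fit takes its spread from the iHPC pair alone, so no call is read from it.

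Pou5f1, which encodes the POU factor Oct4 at the centre of the pluripotency network, was well above background in HB1 only. Its levels (probe at chr17:33612047-33612107, mm7) were -6.67 and -7.39 in iHPC, -5.57 and -6.91 in HPC, and -6.13 in NPC. The gene was not tested, and Pou5f1 was not well above background on the iHPC and NPC arrays, where Rhox5 was high.

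Dppa3, also called Stella, encodes a maternal factor that protects the methylation of the egg's genome after fertilisation. It was well above background in iHPC 9F only, with levels (probe at chr6:122666937-122666996, mm7) of -5.07 and -5.44 in iHPC, -8.12 and -8.62 in HPC, and -7.62 in NPC. Both iHPC arrays were above the other 3, of which all carried values that Agilent's software put in place of signals near the background. In the limma fit without the filter on dim probes its log2 difference was 3.12 between iHPC and HPC (adjusted p = 0.0499) and 2.37 between iHPC and NPC (adjusted p = 0.102). It was not tested with the filter, and both sizes rest on values at the background.

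Zfp42, also called Rex1 and a classical marker of naive embryonic stem cells, has 2 probes with overlapping positions (chr8:42080746-42080805 and chr8:42080786-42080857, mm7). Its levels ran from -7.62 to -7.12 in iHPC, -8.51 to -6.72 in HPC and were -7.33 in NPC on the first probe. Lin28a, whose protein blocks maturation of the let-7 microRNAs, ran from -7.96 to -7.36 in iHPC and -8.88 to -8.26 in HPC and was at -7.84 in NPC (probe at chr4:133382045-133382104, mm7). Neither gene was well above background on any array, so no difference could be measured for them.

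The paralog Lin28b, which acts on let-7 in the same way, was measured in all cells on 1 of its 3 probes. That probe gave levels of -5.50 and -4.71 in iHPC, -5.05 and -0.61 in HPC, and -3.86 in NPC. HNG2 was thus far above the other 4 arrays and exceeded HB1 by 21.8-fold, a difference between single arrays with no test. On the other probes, too, HNG2 was highest, and the only array well above background, with levels of -3.84 and -3.88. With this spread in the HPC pair, Lin28b was not called between iHPC and HPC (-2.28 ± 1.68 SE, limma adjusted p = 0.445).

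Genes of the Lin28 and let-7 pathway were otherwise expressed throughout. All 12 of 14 listed genes on the array were well above background on all arrays. None was called between iHPC and HPC (5.43% of all genes) or between iHPC and NPC (5.64%), and 1 was between HPC and NPC (15.7%). That gene was Dicer1, the RNase that cuts microRNA precursors, which was higher in HPC by 1.75 (limma adjusted p = 0.0409). Dicer1 lost that limma call with the mean of its probes (1.13, adjusted p = 0.0717), with no filter on dim probes (adjusted p = 0.0807), and with the fit on HPC and NPC alone or without either iHPC array (adjusted p = 0.204). Over all the settings tried its adjusted p ranged between 0.0156 and 0.204, with the same sign in each. Hmga2, a chromatin protein whose mRNA is a let-7 target, had levels of 4.16 and 3.84 in iHPC, 2.97 and 4.77 in HPC, and 4.03 in NPC (iHPC minus HPC 0.13, limma adjusted p = 0.920). HNG2 had the highest value of Hmga2 as of Lin28b. The list's median log2 difference was -0.21 between iHPC and HPC (0.05 over all genes), 0.00 between iHPC and NPC (0.03) and 0.67 between HPC and NPC (-0.03).

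**Figure D3:**
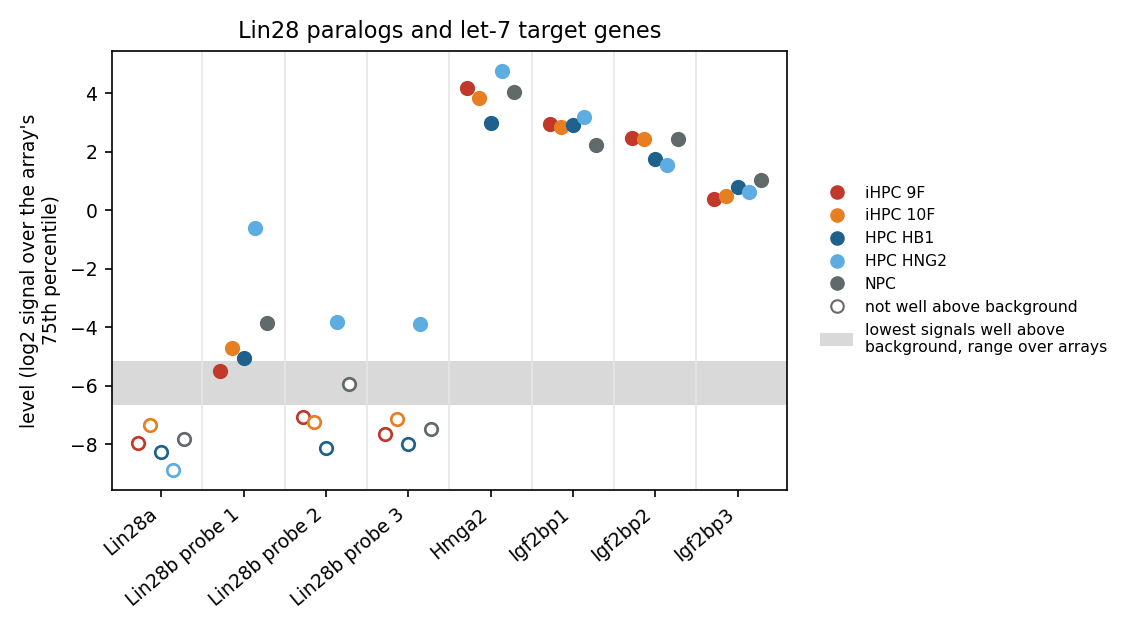
Levels of Lin28a, the 3 probes of Lin28b, Hmga2 and Igf2bp1 to Igf2bp3, which encode RNA-binding proteins whose mRNAs are let-7 targets, on the 5 arrays, as log2 of the signal over the array's 75th percentile. Open points are not well above background. HNG2 is the only array well above background on all 3 Lin28b probes, while Hmga2 and the Igf2bp genes are well above background on all 5 arrays.

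The neighbours of Rhox5 in the Rhox cluster gave no calls. Of 15 listed cluster genes, 6 were on the array and 2 passed the filter, Rhox4e and Rhox9, neither of them called in any comparison. Of all genes, 5.43% were called between iHPC and HPC, 5.64% between iHPC and NPC and 15.7% between HPC and NPC. Rhox4e, whose probe may not separate the near-identical Rhox4 copies, had levels of -0.10 and -0.73 in iHPC, -0.62 and -1.65 in HPC, and -0.46 in NPC. Rhox9 had levels of -4.75 and -4.77 in iHPC, -5.90 and -6.77 in HPC, and -5.14 in NPC, with HNG2 not well above background. Both were lowest in HNG2, and iHPC minus HPC was 0.72 for Rhox4e (limma adjusted p = 0.404) and 1.58 for Rhox9 (adjusted p = 0.105). Rhox6 was well above background in iHPC 9F only (-4.58), and Rhox2a, Rhox3a and Rhox11 on no array.

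A few other genes followed the profile of Rhox5. By Euclidean distance over the 5 arrays, after each gene's mean was subtracted, the nearest of 15763 genes was 2410003J06Rik (distance 1.11). It was followed by Slc38a4, an amino acid transporter gene (1.67), Mgp, which encodes a matrix protein that inhibits calcification (2.21), and the neural zinc finger gene Zic1 (2.31). Tm4sf1, a tetraspanin-like membrane protein gene (2.79), and Ddr2, a collagen receptor gene (3.02), came next. In HPC only Tm4sf1, on both arrays, and Mgp, on HNG2, were well above background, so the distances of the others rest partly on values at the background. Slc38a4 had levels of 0.83 and 0.98 in iHPC, -8.20 and -8.74 in HPC, and 1.88 in NPC. These 6 were chosen for their likeness, so no difference was tested, and Zic1, Mgp and Ddr2 are neural or mesenchymal genes. NPC was the highest of the 5 arrays for 4 of the 6, 2410003J06Rik, Slc38a4, Zic1 and Ddr2, while Rhox5, Mgp and Tm4sf1 were higher in iHPC.

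**Figure D4:**
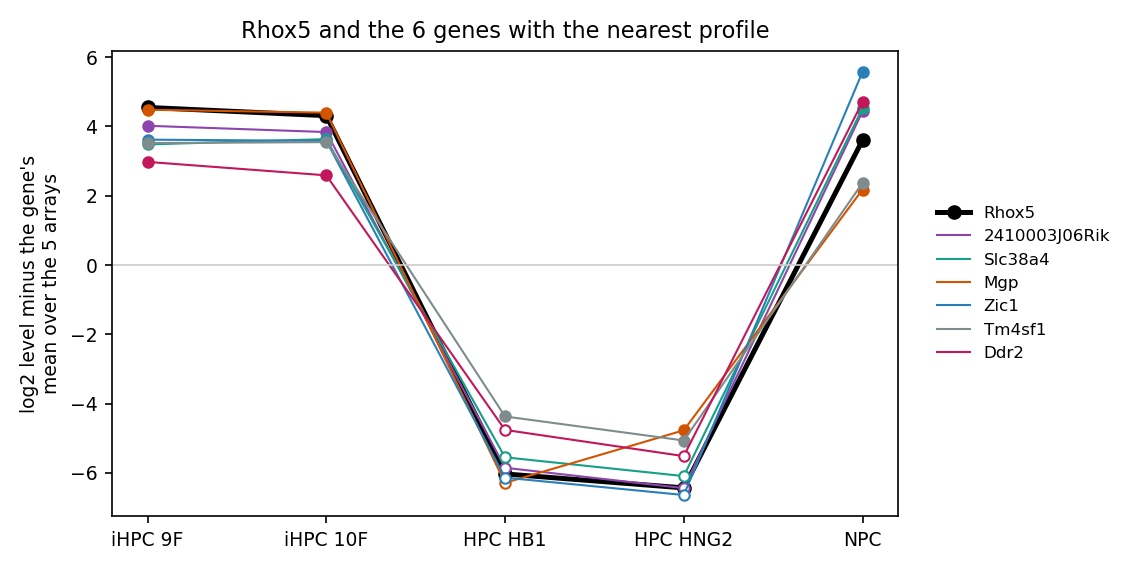
Log2 level minus the gene's mean over the 5 arrays for Rhox5 (thick black line) and the 6 genes nearest to it. Filled points are well above background and open points are not. All 7 lines are above 0 in iHPC, below 0 in both HPC lines and above 0 in NPC, and most points in HPC are open.

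Of the wider network of core pluripotency, 34 genes were listed, 29 were on the array and 19 were tested. Between iHPC and HPC 1 was called higher and 1 lower, between iHPC and NPC 2 higher and 1 lower, and between HPC and NPC 2 higher and 1 lower, beside 5.43%, 5.64% and 15.7% of all genes called in either direction. The median log2 difference of the 19 was 0.47 between iHPC and HPC (0.05 over all genes), 0.04 between iHPC and NPC (0.03) and -0.39 between HPC and NPC (-0.03). Of the 29, 14 were well above background on all arrays and 8 on none.

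Sox2, a partner of Oct4 that is also the defining factor of neural progenitors, was called in all 3 comparisons. Its levels were -3.57 and -4.41 in iHPC, -8.07 and -8.60 in HPC, and 0.86 in NPC, and it was not well above background in HPC. It was at least 4.97-fold higher in iHPC than in HPC (limma adjusted p = 0.0301) and at least 144-fold lower in HPC than in NPC (adjusted p = 0.0112). Unlike Rhox5, it fell in iHPC against NPC (log2 difference -4.86, adjusted p = 0.0338).

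Klf5, a Krüppel-like factor of embryonic stem cells and epithelia, had levels of 2.22 and 2.42 in iHPC, 2.17 and 2.76 in HPC, and -0.92 in NPC. It rose by 3.24 in iHPC against NPC (limma adjusted p = 0.0364) and by 3.39 in HPC against NPC (adjusted p = 0.0202), on the log2 scale. Tfcp2l1, which encodes a naive pluripotency factor also known in kidney epithelium, was not well above background in NPC and was at least 11.7-fold higher in iHPC (adjusted p = 0.0285) and at least 3.92-fold higher in HPC (adjusted p = 0.0216). Tbx3, a T-box factor that also drives hepatoblast growth, was lower in iHPC than in HPC (log2 difference -3.34, adjusted p = 0.0377). Both Klf5 and Tfcp2l1 were thus higher in HPC than in NPC, whereas Rhox5 was lower in HPC than in NPC. Between iHPC and HPC, Tfcp2l1 was higher in iHPC, as Rhox5 was, but was not called (log2 difference 1.58, limma adjusted p = 0.0567). Klf5 differed there by -0.15 (adjusted p = 0.781). With no filter on dim probes Tbx3 lost its call (adjusted p = 0.0594), as did Sox2 (0.0534) and Klf5 (0.0631) between iHPC and NPC, and with normexp Tfcp2l1 lost that between HPC and NPC (log2 difference 0.40, adjusted p = 0.233). No call on any listed gene held when either iHPC array was left out. In those fits limma called 0 genes in all 3 comparisons, with 1903 to 3889 genes at an unadjusted p under 0.05.

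**Figure D5:**
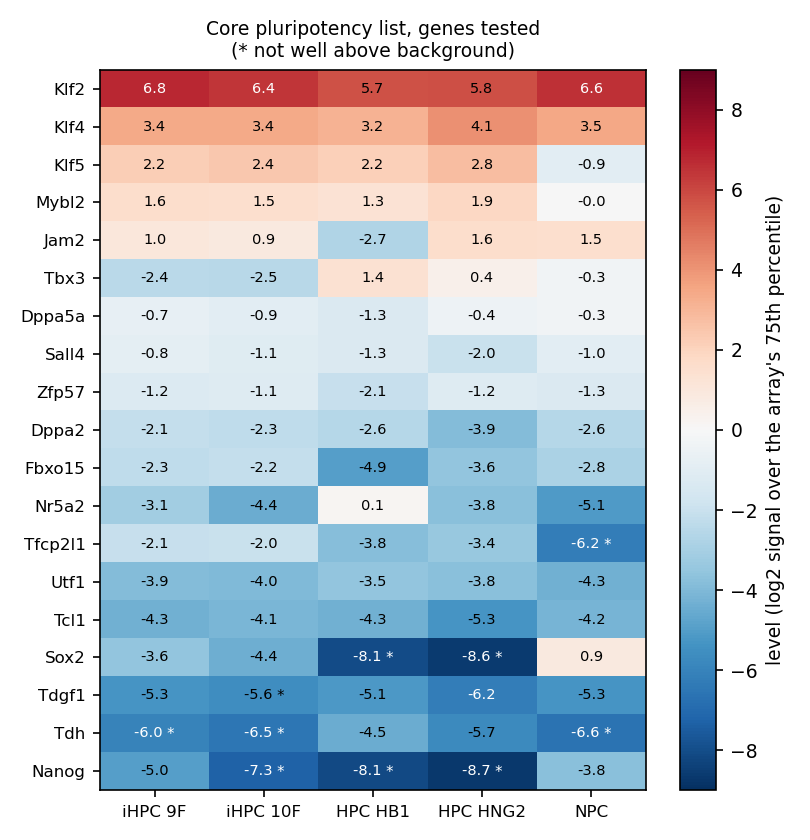
Levels of the 19 tested genes of the core pluripotency list on the 5 arrays, as log2 of the signal over the array's 75th percentile, to be compared along each row only. An asterisk marks a value not well above background. Sox2 is lowest in both HPC lines, Klf5 and Tfcp2l1 are lowest in NPC, and Klf2 and Klf4 are well above background on all 5 arrays. Nanog is well above background in NPC and iHPC 9F only, so the order of its other values is not read.

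Genes of the formative and primed epiblast gave 1 call among 11 tested of 16 on the array. Lefty1, a secreted inhibitor of Nodal, was lower in iHPC than in HPC (log2 difference -2.07, limma adjusted p = 0.0474, and 0.0824 with no filter on dim probes), and no member was called in the other comparisons. Among primordial germ cell and germline genes, 4 of 19 passed the filter and 10 were well above background on no array. The only call among the 4 was Prdm1, a repressor that starts the germ cell programme and acts in many lineages. It was at least 12.6-fold lower in HPC than in NPC (limma adjusted p = 0.0154). Like Nanog, Prdm1 passed the filter only through the single NPC array, where it was highest. The filter thus favoured that difference, and nothing is read from its p. Of the Sall family paralogs Sall1, Sall2 and Sall3, only Sall1 was called, 2.00 higher in HPC than in NPC on the log2 scale (adjusted p = 0.0265). Sall1 lost that call with normexp (0.67, adjusted p = 0.0744) and with no filter on dim probes (adjusted p = 0.0573). Of all genes, 5.43% were called in either direction between iHPC and HPC, 5.64% between iHPC and NPC and 15.7% between HPC and NPC.

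Listed genes of the DNA methylation machinery, which are enzymes and other factors linked to methylation, gave 1 call in all. Of 14 listed genes 12 were tested, and 0 were called between iHPC and HPC and between iHPC and NPC, while 1 was between HPC and NPC, against 5.43%, 5.64% and 15.7% of all genes. That gene was Hells, a chromatin remodeller needed for methylation, which was 1.28 higher in HPC on the log2 scale (limma adjusted p = 0.0485, and 0.113 with no filter on dim probes). Dnmt1, the maintenance methyltransferase gene, had levels of 2.42 and 2.38 in iHPC, 1.75 and 2.79 in HPC, and 2.09 in NPC (iHPC minus HPC 0.13, adjusted p = 0.869). The log2 differences between iHPC and HPC were -0.35 for the de novo methyltransferase gene Dnmt3b (adjusted p = 0.469) and -0.48 for Uhrf1, which recruits Dnmt1 (adjusted p = 0.220). The list's median log2 difference was -0.10 between iHPC and HPC, 0.04 between iHPC and NPC and 0.16 between HPC and NPC.

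Rhox5 is also a gene of the extraembryonic lineages, and genes of these were called in both directions. Of 11 trophoblast genes on the array 6 were tested. Between iHPC and HPC 2 were called lower and 0 higher, between iHPC and NPC 2 higher and 0 lower, and between HPC and NPC 3 higher and 1 lower. Of all genes, 1.88% were called lower and 3.55% higher in the first comparison, 2.8% higher and 2.85% lower in the second, and 6.68% higher and 8.97% lower in the third. Cdx2, a trophoblast and intestinal factor, had levels of -0.29 and -0.83 in iHPC, 4.70 and 4.37 in HPC, and -7.85 in NPC, so it was highest where Rhox5 was low. It was lower in iHPC than in HPC (log2 difference -5.09, limma adjusted p = 0.0193), and HPC exceeded NPC by at least 1117-fold (adjusted p = 0.00964). Krt7, a keratin of simple epithelia, had levels of 4.67 and 4.44 in iHPC and 7.19 and 7.93 in HPC, lower in iHPC (adjusted p = 0.0373, and 0.0609 with no filter on dim probes). In NPC it was not well above background, so iHPC exceeded NPC by at least 1135-fold (adjusted p = 0.0264). Eomes, a T-box factor of trophoblast stem cells, had levels of -5.68 and -5.30 in iHPC, -2.60 and -3.90 in HPC, and -7.36 in NPC, and only HPC was well above background. HPC exceeded NPC in Eomes by at least 5.08-fold (adjusted p = 0.0380). That call was lost with normexp (log2 difference 0.63, adjusted p = 0.281) and with no filter on dim probes (adjusted p = 0.0567). Eomes passed the filter only through the HPC pair, where it was highest. The filter thus favoured that difference, and nothing is read from its p. Plac1, a placental gene, fell in HPC against NPC (log2 difference -4.01, adjusted p = 0.0291).

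Of 18 genes of the primitive and extraembryonic endoderm, 17 were tested. Between iHPC and HPC 1 was called higher and 2 lower, between iHPC and NPC 0 higher and 5 lower, and between HPC and NPC 1 higher and 4 lower. Of all genes, 3.55% were called higher and 1.88% lower in the first comparison, and 2.8% higher and 2.85% lower in the second. In the third comparison 6.68% were higher and 8.97% lower. Gata6, a factor of primitive endoderm and of fetal liver, was lower in iHPC than in HPC (log2 difference -6.47, limma adjusted p = 0.0245) and 7.96 higher in HPC than in NPC (adjusted p = 0.0143). Foxa2, a pioneer factor of endoderm and liver, was lower in iHPC than in HPC (log2 difference -4.88, adjusted p = 0.0183) and than in NPC (-3.13, adjusted p = 0.0350, and 0.0624 with no filter on dim probes). Pdgfra, a receptor of primitive endoderm and mesenchyme, and Sox7, an endoderm and endothelial factor, were also lower in HPC than in NPC. The bound was at least 66.4-fold for Pdgfra (adjusted p = 0.0133) and at least 6.91-fold for Sox7 (adjusted p = 0.0148). Pdgfra, Sox7 and Thbd passed the filter only through the single NPC array, where they were highest. The filter thus favoured their lower calls in iHPC and in HPC against NPC, and nothing is read from their p. The counts of lower calls above include these genes. Over the 9 lists together, 78 genes other than the pluripotency members were tested. Between iHPC and HPC 2 were called higher and 6 lower, between iHPC and NPC 4 higher and 6 lower, and between HPC and NPC 9 higher and 7 lower, beside 5.43%, 5.64% and 15.7% of all genes.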

How the data were processed

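The files are Agilent scanner output. Per the file headers, they were made with Agilent Feature Extraction 10.7.3.1, which removed background from the intensity and wrote surrogates where a value was near it, and the probe coordinates are those of mm7. The deposited series matrix held the same intensity on 100% of spots. No normalization between arrays is recorded. Here log2 of the processed intensity minus the 75th percentile of the array was used, spots that were controls or flagged as outliers were dropped, and a gene was its probe with the highest mean. A value on all arrays was present for 41149 of 41174 probes. Probes were named through RefSeq accessions (22944 probes), by symbol (6664) or by the file's own name (11566). The 19310 genes with a signal well above background on all arrays of 1 group or more were tested in 1 limma 3.58.1 fit (R 4.3.3, two-sided, 3 groups, 2 residual degrees of freedom, Benjamini-Hochberg over all genes). A gene's SD had a median of 0.105 in the iHPC pair and of 0.374 in the HPC pair, and the fit takes NPC to have their spread. With 2 arrays against 2, the smallest p of an exact permutation test is 0.333. "At least" folds compare the mean of the bright group with the detection limit on each array of the dim group, that is its lowest signal well above background, or with the dim signal where that is larger. The order of genes by level on an array is not given, since different probes are not comparable.

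Members and lists were chosen with earlier results of these data known. Beside the members, the text names the called genes of each list, at most 4 a list, with Sox2, Lin28b, Hmga2, Dnmt1, Dnmt3b and Uhrf1 whatever their values, and the 6 genes most like Rhox5. Rhox4e, Rhox9, Rhox6, Rhox2a, Rhox3a and Rhox11, Klf2 and Klf4, Igf2bp1 to Igf2bp3, and Sall2 and Sall3 were named after their values were seen. So were Dppa5a and Thbd. Alternatives were other normalizations, background correction, filters, probe summaries, sets of samples and arrays left out. Arrays of embryonic stem cells and another neural line, which the study names, were not used here. Plots were made in matplotlib 3.10.9.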

Additional observations from a re-analysis of the deposited data

How the results depend on the processing

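The direction of every Rhox5 difference held under all alternatives. Its log2 difference was 10.1 between iHPC and HPC and -9.27 between HPC and NPC with normexp, which adds an offset of 50, -9.52 between HPC and NPC with median centring, and 0.56 between iHPC and NPC with quantile normalization. Median centring moved every gene by -0.25 between iHPC and HPC and by 0.31 between HPC and NPC. The number of genes called moved more. Between iHPC and HPC (1048) it was 2109 with normexp, 460 with no filter on dim probes and 617 with only probes measured on all arrays. The listed genes other than the 9 called there (8 of 78 tested) became 4 with no filter and 5 with the strictest filter. Between iHPC and NPC (1090, with 10 of the listed genes) it was 305 and 492 under these filters, with 3 listed genes under either. On only the groups compared, which all lie in the third scan day so that scan day as a block gives the same fit, it was 6755, with 36 listed genes. Between HPC and NPC (3023, with 16 listed genes) it was 4745 with normexp and 1643 with no filter, and 9 listed genes were called with the strictest filter. On only the groups compared 0 genes and 0 listed genes were called by limma (3889 genes at an unadjusted p under 0.05).

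Leaving out 1 array gave 0 to 6992 genes between iHPC and HPC, 0 to 6755 between iHPC and NPC and 0 to 9763 between HPC and NPC, and 0 to 38, 0 to 36 and 0 to 48 listed genes. Limma called 0 without iHPC replicate 1 (9F) or 2 (10F), with 1903 and 1936, 2125 and 2122, and 3889 and 3889 genes at an unadjusted p under 0.05, and the most without an HPC array, where the spread comes from the iHPC pair alone. The split into higher and lower calls was 685 and 363 between iHPC and HPC, 720 and 558 with quantile normalization and 678 and 621 with median centring. Between HPC and NPC it was 1290 and 1733, and 1875 and 1478 with median centring. Of 880 values of single genes under alternatives, 721 kept their side of the threshold, 70 passed only under the alternative, 89 lost the call and 0 turned a called direction. Nearness to background limits Nanog, Tdgf1, Pou5f1, Dppa3, Zfp42 and Lin28a. No paired analysis was possible because the labels give the arrays of different groups no shared replicate numbers, and those used here follow accession order and only name the arrays.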
